A study of Sus scrofa with 9 samples.

Results

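Mitochondrial inner membrane carriers that move adenine nucleotides or protons were followed in the back muscle of obese and control minipigs. The group of genes was SLC25A6, an ADP/ATP carrier, UCP2 and UCP3, 2 uncoupling proteins, and SLC25A20, the carnitine/acylcarnitine carrier, which is neither an ADP/ATP carrier nor an uncoupling protein but belongs to the same SLC25 family. Every probe whose accession mapped to one of these 4 symbols in the pig RefSeq gene table was taken, which gave 9 probes of 3 genes out of 43603 probes and 3196 named genes: 6 probes for SLC25A6, 2 for UCP3 and 1 for UCP2. SLC25A20 had 0 named probes and was not analysed here.

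The animals were Bama minipigs, a small Chinese breed, gonadally intact and of both sexes. The sex of each animal is not given in the labels. The 6 HFHSD animals received a high-fat high-sucrose diet, with 37% sucrose and 10% lard added to 53% basal feed, and the 3 CD animals received standard pig chow. Feeding began at 6 months of age and ran for 23 months in both groups, on a restricted ration of 3% of body weight. Longissimus dorsi, the long muscle of the back, was taken after an overnight fast, and its total RNA was hybridised to single-dye Agilent arrays, 1 array per animal. The series is about how fat deposition and reduced muscle growth go together in this obesity model.

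ADP/ATP carriers export newly made ATP from the mitochondrial matrix in exchange for ADP, and so couple the respiratory chain to the work of the contracting fibre. Mammals have several isoforms, of which SLC25A4 is the classical heart and muscle form and SLC25A5 and SLC25A6 are found in many tissues. Uncoupling proteins are close relatives of these carriers. UCP1, the founding member, dissipates the proton gradient as heat in brown fat. UCP3 is largely a skeletal muscle protein whose transcript follows fatty acid supply, and UCP2 is made in many tissues, with high levels in immune cells. SLC25A4, SLC25A5 and UCP1 had 0 named probes. The ADP/ATP carrier isoforms are similar in sequence, and no probe sequence was at hand, so whether the SLC25A6 probes also capture SLC25A4 or SLC25A5 transcripts was not tested.

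Levels are log2 processed signals relative to the 75th percentile of the same array, so a level of 0 is that percentile, and differences are HFHSD minus CD with the standard error (SE) of a limma fit over 27922 tested probes. All 9 probes were well above background on all 9 arrays and 0 were saturated. The measured genes were chosen by the HFHSD minus CD difference of these same levels, so their differences are a description and carry no test. The arrays came from 3 slides. HFHSD 5 and HFHSD 6 shared slide 1, whose scan day differed from that of the other slides. CD 1 was on slide 2 together with HFHSD 1, HFHSD 3 and HFHSD 4. On slide 3, HFHSD 2 was hybridised beside CD 2 and CD 3. CD 1 stood apart, with 36.8% of probes well above background, against 51.2% to 68.9% on the other 8 arrays. In whole muscle, fewer cells of a type and less RNA per cell cannot be told apart.

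SLC25A6 was lower in HFHSD muscle by every one of its 6 probes, at 0.364 to 0.420 times the CD level. By its brightest probe (A_72_P165521, probe 1) the level was 6.22, 6.27, 6.39, 6.48, 6.04 and 6.07 in HFHSD 1 to 6, against 7.82, 7.47 and 7.60 in CD 1 to 3. The HFHSD animals lay within 0.44 of each other, and the gap between the highest of them and the lowest CD animal was 0.999. The means were 6.24 ± 0.17 (SD, n = 6) in HFHSD and 7.63 ± 0.17 (SD, n = 3) in CD, a difference of -1.39 (SE 0.18).

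The other 5 probes repeated this pattern at different brightness. Probe 2 (A_72_P655352) read 6.07, 6.27, 6.24, 6.44, 5.97 and 5.97 in HFHSD 1 to 6, against 7.69, 7.48 and 7.54 in CD 1 to 3. Probe 3 (A_72_P696182) read 4.79, 5.04, 5.02, 5.18, 4.74 and 4.75 in HFHSD, against 6.39, 6.41 and 6.33 in CD, and had the largest difference of the 6 at -1.46 (SE 0.17). Its 3 CD animals spanned only 0.081, the narrowest CD range among the 6 probes. The dimmest, probe 6 (A_72_P529263), read 2.75, 2.82, 2.94, 3.06, 2.18 and 2.46 in HFHSD, against 4.14, 3.69 and 4.24 in CD, with the widest range in both diets. Probe 5 (A_72_P539354) had the smallest difference, -1.25 (SE 0.21), and probe 4 (A_72_P518065) differed by -1.38 (SE 0.21). The differences of the 6 probes thus ran from -1.46 to -1.25, with SE of 0.17 to 0.24.

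**Figure D1:**
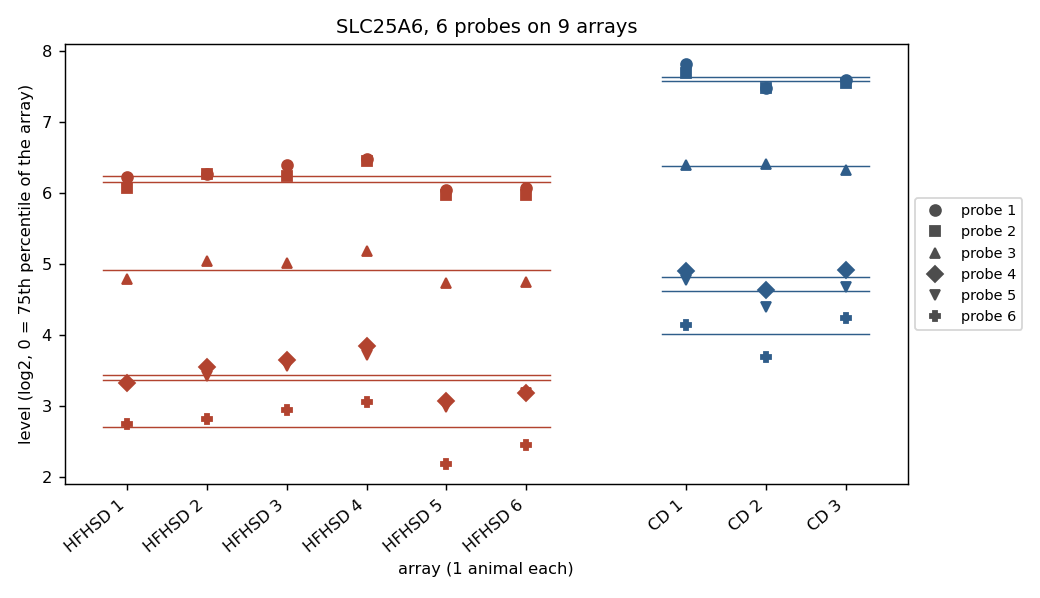
SLC25A6 levels (log2, relative to the array's 75th percentile, vertical axis) of 6 probes, 1 symbol each, on the 6 HFHSD arrays (left, red) and the 3 CD arrays (right, blue), with a line at the mean of each probe and diet. For every probe the HFHSD symbols lie below all CD symbols, by gaps of 0.63 to 1.15, and HFHSD 4 is the highest and HFHSD 5 the lowest HFHSD array throughout.

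The probes also ranked the HFHSD animals alike. HFHSD 4 was the highest and HFHSD 5 the lowest of the 6 HFHSD animals for all 6 probes. Over deviations from the diet means on the 9 arrays, the 15 pairs of SLC25A6 probes correlated with r between 0.69 and 0.97 (median 0.92), given as a description because the probes share each animal's RNA and labelling. HFHSD 5 and HFHSD 6 were the arrays of slide 1 and had the highest shares of probes well above background, 68.8% and 68.9%.

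Of the 9 probes, 6 passed an adjusted p of 0.05, all of them SLC25A6, beside 1.23% of all tested probes in either direction and 0.537% lower in HFHSD. By the sign of the difference alone 9 of 9 were lower, beside 52.1% of all tested probes. Every HFHSD array lay below every CD array for 8 of the 9 probes, beside 6.11% of all tested probes. The SLC25A6 differences fell between the 1.15 and 1.99 percentiles of the differences of all tested probes, counted from the most negative. These counts restate the contrast by which the genes were picked. The number of passing probes was 3 without HFHSD 2, without HFHSD 3, without HFHSD 6 or without CD 2, and 0 without CD 1 or without CD 3, while the difference of the brightest probe stayed between -1.46 and -1.29 when any 1 array was left out. It was 3 also with slide as a fixed block, and 3 without slide 1.

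The diets also stayed apart for SLC25A6 in the values without scaling between arrays. In processed intensity as deposited, the brightest probe ran from 12873 to 19856 in HFHSD and from 30255 to 39797 in CD, although CD 1 was the dimmest array of all, and each of the 6 probes kept the diets apart. Within slide 2 the 3 HFHSD animals averaged 6.36, against 7.82 in CD 1, a difference of -1.45. Within slide 3 HFHSD 2 had 6.27, against a mean of 7.54 in the 2 CD animals, a difference of -1.27. Across the 6 probes the differences ran from -1.45 to -1.22 within slide 2 and from -1.33 to -1.11 within slide 3.

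A single setting brought the diets together. With normexp background correction of the spot medians followed by 75th percentile scaling, the brightest probe was 5.37 to 5.78 in HFHSD, against 5.56 in CD 1, 6.91 in CD 2 and 6.97 in CD 3. CD 1 thus lay among the HFHSD arrays, CD 2 and CD 3 stayed above them, and the difference was -0.92. With the same background correction followed by quantile normalisation the diets were again apart for all 6 probes, and the brightest probe differed by -1.29.

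**Figure D2:**
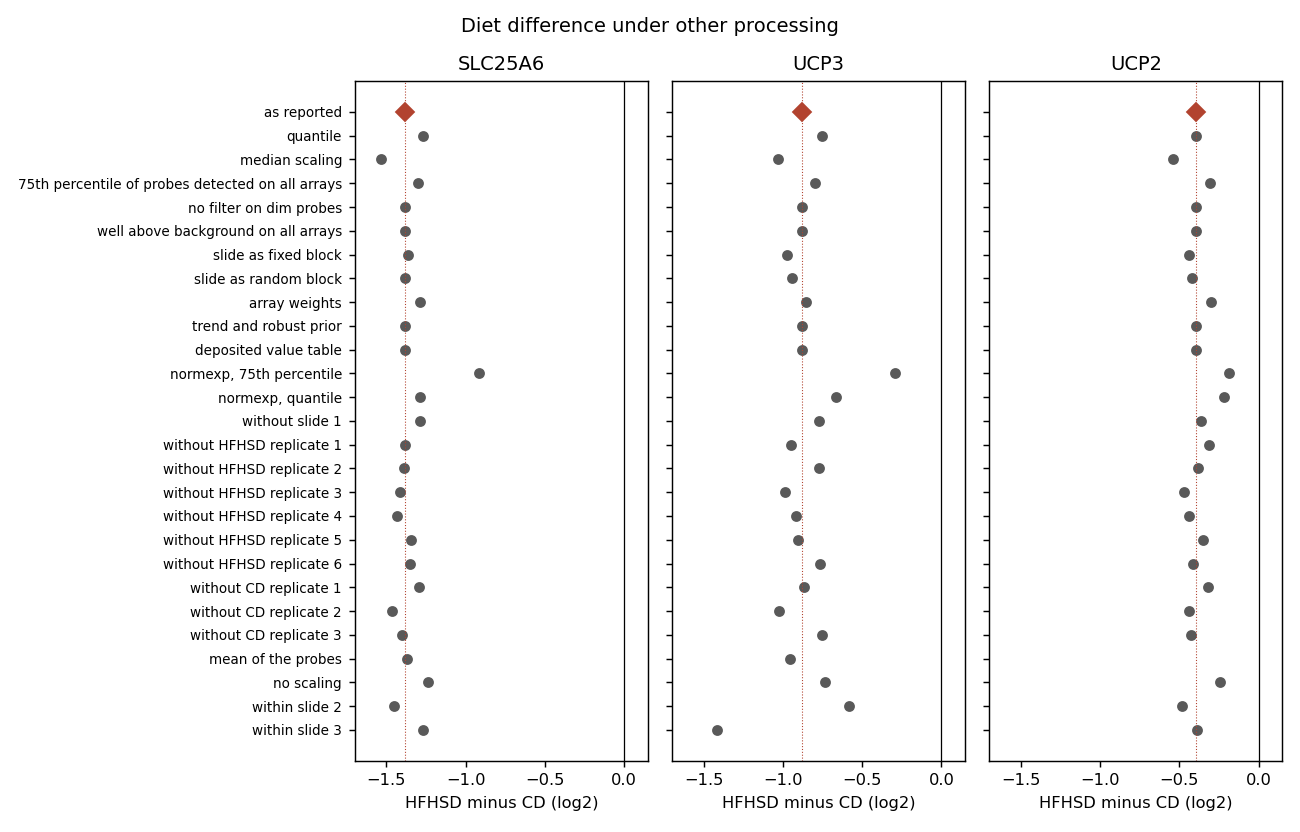
Difference between HFHSD and CD (log2, horizontal axis) of the brightest probe of SLC25A6, UCP3 and UCP2 under each processing setting (rows). Diamonds mark the values as reported, -1.39, -0.88 and -0.39, and all other settings stay below 0, with the smallest SLC25A6 difference, -0.92, under normexp with 75th percentile scaling.

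UCP3 was lower in HFHSD muscle as well, with more spread between animals than SLC25A6. By its brighter probe (A_72_P146406, probe 1) the level was 8.04, 7.17, 8.23, 7.88, 7.84 and 7.15 in HFHSD 1 to 6, against 8.63, 8.32 and 8.86 in CD 1 to 3. The highest HFHSD animal, HFHSD 3, was only 0.083 below the lowest CD animal, CD 2. The means were 7.72 ± 0.45 (SD, n = 6) in HFHSD and 8.60 ± 0.27 (SD, n = 3) in CD, a difference of -0.88 (SE 0.28), or 0.543 times the CD level.

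The dimmer UCP3 probe (A_72_P443167, probe 2) gave 4.96, 3.09, 4.28, 3.90, 3.80 and 3.89 in HFHSD 1 to 6, against 4.97, 4.97 and 5.10 in CD 1 to 3. HFHSD 1 was thus at the CD level by this probe, 0.0070 below CD 1, whereas HFHSD 2 lay 1.87 below HFHSD 1. The difference was -1.03 (SE 0.34). The 2 probes placed the HFHSD animals differently: HFHSD 6 was the lowest by probe 1 and HFHSD 2 by probe 2, and HFHSD 3 was the highest by probe 1 and HFHSD 1 by probe 2. Their deviations from the diet means correlated with r = 0.67 over 9 arrays.

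The UCP3 difference varied with the slide. Within slide 2 it was -0.58 by probe 1 and -0.59 by probe 2, and within slide 3, which holds a single HFHSD animal, it was -1.41 and -1.94. The diets did not overlap for either UCP3 probe in the values as reported, which was the only setting of 7 that kept both apart. They overlapped for both in intensity without scaling, where probe 1 ran from 29526 to 54398 in HFHSD and from 53290 to 95021 in CD, and for both with median scaling and with normexp and 75th percentile scaling. They overlapped for 1 of the 2 with quantile normalisation, with the percentile over detected probes and with normexp and quantile. With normexp and 75th percentile scaling the difference of probe 1 was -0.29, and CD 1, at 6.24, lay below every HFHSD animal. Of the 2 UCP3 probes 0 passed the threshold of 0.05 over all tested probes, and their differences stood at the 5.11 and 3.43 percentiles of all tested probes.

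UCP2 had 1 probe (A_72_P165336), near the 75th percentile of the arrays. Its level was -0.49, -0.15, 0.29, 0.13, -0.29 and 0.0051 in HFHSD 1 to 6, against 0.46, 0.22 and 0.24 in CD 1 to 3. The diets overlapped, since HFHSD 3 was above CD 2 and CD 3. The means were -0.085 ± 0.29 (SD, n = 6) in HFHSD and 0.31 ± 0.13 (SD, n = 3) in CD, a difference of -0.39 (SE 0.21), or 0.761 times the CD level. It was -0.19 with normexp and 75th percentile scaling. The probe did not pass the threshold, and its difference stood at the 20.2 percentile of all tested probes. Without scaling its intensity was 123 to 297 in HFHSD and 185 to 261 in CD.

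**Figure D3:**
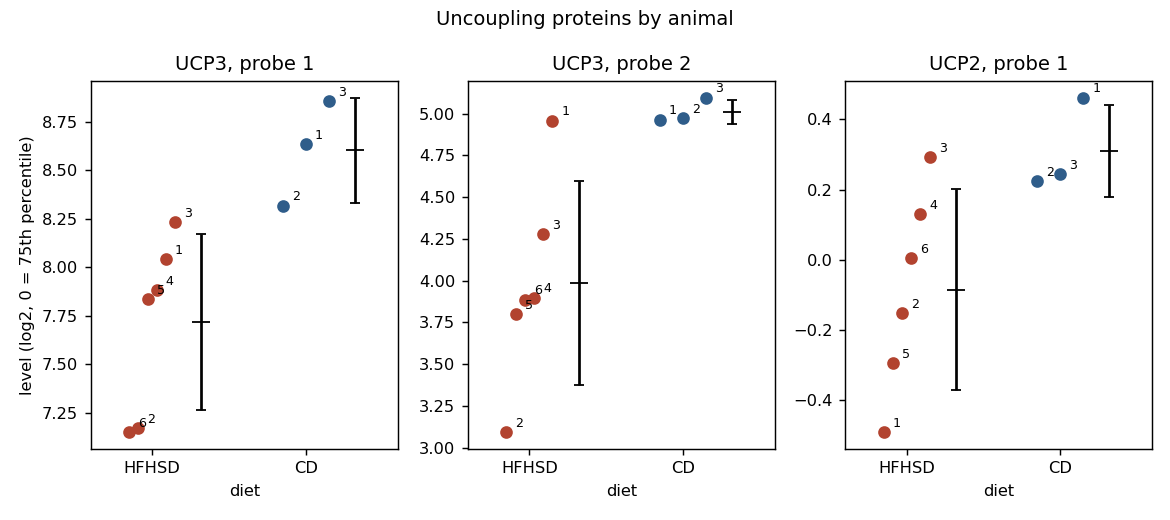
Levels (log2, relative to the array's 75th percentile) of the 2 UCP3 probes and the UCP2 probe in HFHSD (left, red) and CD (right, blue) animals, each point 1 animal with its replicate number, and a black bar at the mean ± SD of each diet. UCP3 probe 1 and probe 2 leave gaps of 0.083 and 0.0070 between the diets, and UCP2 overlaps.

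UCP2 and UCP3 are neighbours in the pig genome: on the Sscrofa11.1 assembly they lie on the same chromosome with 1 annotated locus, a long noncoding RNA, between them. No relation between their levels passed across the HFHSD animals (Pearson r = 0.091, exact permutation p = 0.85; Spearman rho = 0.20, exact permutation p = 0.71, n = 6). By the UCP3 probe used there, probe 1, HFHSD 3 was the highest HFHSD animal for both genes, whereas HFHSD 1 had the lowest UCP2 level of the 9 animals and the second highest UCP3 level of the HFHSD animals.

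Within an array, the log2 ratio of 2 probes does not change when 1 constant is taken from all log2 values of the array. SLC25A6 minus UCP2 was 6.71, 6.42, 6.10, 6.35, 6.33 and 6.06 in HFHSD 1 to 6, against 7.35, 7.25 and 7.35 in CD 1 to 3. The diets did not overlap and the ratio differed by -0.99, which is a description, since it comes from the levels by which the genes were chosen. It was -0.88 with quantile normalisation, and -0.73, with overlap, with normexp and 75th percentile scaling. SLC25A6 minus UCP3 was -1.82, -0.90, -1.84, -1.41, -1.80 and -1.08 in HFHSD, against -0.82, -0.84 and -1.26 in CD, which overlapped.

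Spread within the HFHSD group was not used to pick the genes and was tested across its 6 animals, by exact two-sided permutation, with Benjamini-Hochberg adjustment over 6 relations. SLC25A6 and UCP2 gave Pearson r = 0.57 (exact permutation p = 0.25, adjusted p = 0.49) and Spearman rho = 0.66 (exact permutation p = 0.18, adjusted p = 0.35). SLC25A6 and UCP3 gave r = 0.43 (exact permutation p = 0.38, adjusted p = 0.58) and rho = 0.49 (exact permutation p = 0.36, adjusted p = 0.53). Neither relation passed. Leaving out the 2 animals farthest from the median of the first gene changed r to 0.36 with UCP2 and to 0.67 with UCP3, and UCP2 with UCP3 to 0.0099. Signs also turned with the scaling: SLC25A6 with UCP2 was -0.020 with quantile normalisation, and SLC25A6 with UCP3 was -0.23 without scaling.

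The share of probes well above background was set beside these levels. Across the 6 HFHSD animals SLC25A6 gave a negative relation with this share (r = -0.85, exact permutation p = 0.044, adjusted p = 0.27; rho = -0.66, exact permutation p = 0.18, adjusted p = 0.35). It was r = -0.87 without the 2 animals farthest from the median, and 0.77 without scaling. UCP3 gave r = -0.69 (exact permutation p = 0.15, adjusted p = 0.45) and rho = -0.94 (exact permutation p = 0.017, adjusted p = 0.10), r = -0.77 without the 2 farthest animals, and r = -0.0064 without scaling. UCP2 gave r = -0.30 (exact permutation p = 0.55, adjusted p = 0.66) and rho = -0.26 (exact permutation p = 0.66, adjusted p = 0.71), r = -0.62 without the 2 farthest animals, and r = 0.55 without scaling. None of these passed after adjustment. The part of array brightness in the diet differences was not tested, beyond the values without scaling and without CD 1 given here. On slide 3 the share was 61.5% in HFHSD 2, 63.3% in CD 2 and 58.1% in CD 3, with SLC25A6 levels of 6.27, 7.47 and 7.60. On slide 2, CD 1 had 36.8% and a level of 7.82. These are single animals and the levels by which the gene was chosen, so they are given as a description.

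**Figure D4:**
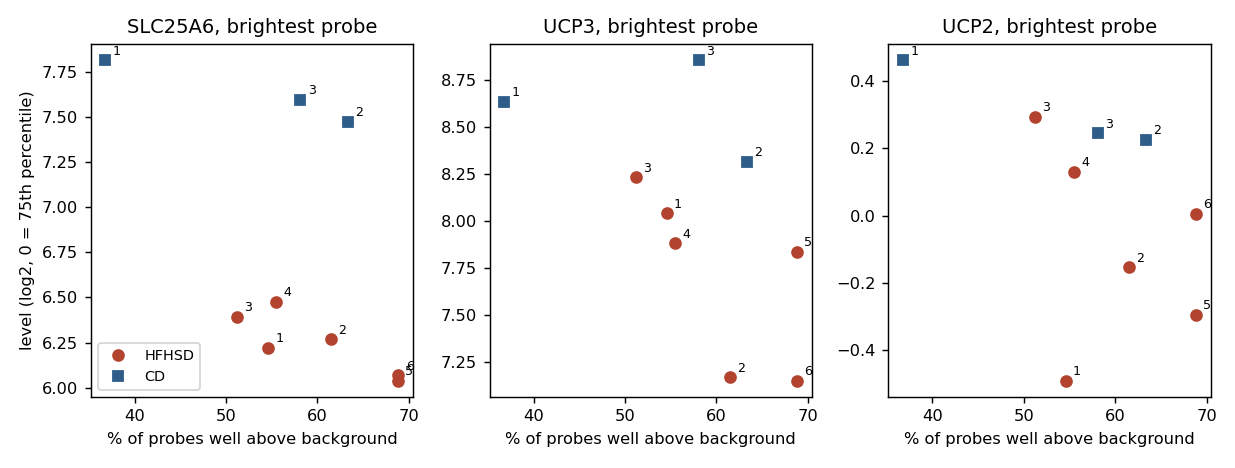
Level (log2, relative to the array's 75th percentile) of the brightest probe of SLC25A6, UCP3 and UCP2 against the percentage of probes well above background, 1 point per animal with its replicate number (HFHSD red circles, CD blue squares). CD 1 sits alone at 36.8%, and CD 2 and CD 3 lie among the HFHSD arrays on the horizontal axis but above all of them in SLC25A6.

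Among the other measured genes of the mitochondrial carrier family, which swap metabolites across the same membrane, 7 of 9 were lower in HFHSD by their difference and 0 passed in either direction, with a median difference of -0.51. Over all 2613 tested named genes 57.6% were lower by their difference, the median was -0.085, 0.995% passed in either direction and 0.498% as lower. The median of the 9 genes was -0.095 when probes of a gene were averaged in place of taking the brightest, and -0.10 with normexp and quantile normalisation. SLC25A15, which carries ornithine into the matrix for the urea cycle, had the largest difference, at a level of -1.31 ± 0.65 (SD, n = 6) in HFHSD and 0.45 ± 0.25 (SD, n = 3) in CD, -1.76 (SE 0.37, limma adjusted p = 0.053). It missed the threshold narrowly, and its diets did not overlap.

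SLC25A3, the phosphate carrier that feeds ATP synthase alongside the ADP/ATP carrier, differed by -0.66 (SE 0.21, limma adjusted p = 0.15), with 10 of its 10 probes lower. SLC25A25 and SLC25A23, which exchange ATP-Mg for phosphate, differed by -0.80 (SE 0.30, limma adjusted p = 0.22) and -0.51 (SE 0.35, limma adjusted p = 0.53). Both were dim, with mean HFHSD levels of -2.02 and -2.25. For SLC25A23 the diets overlapped, 1 of its 2 probes was lower, and 2 of 3 CD arrays were well above background. SLC25A27, a brain uncoupling protein relative also called UCP4, differed by 0.17 (SE 0.32), with a mean level of -2.04 in HFHSD and -2.21 in CD.

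**Figure D5:**
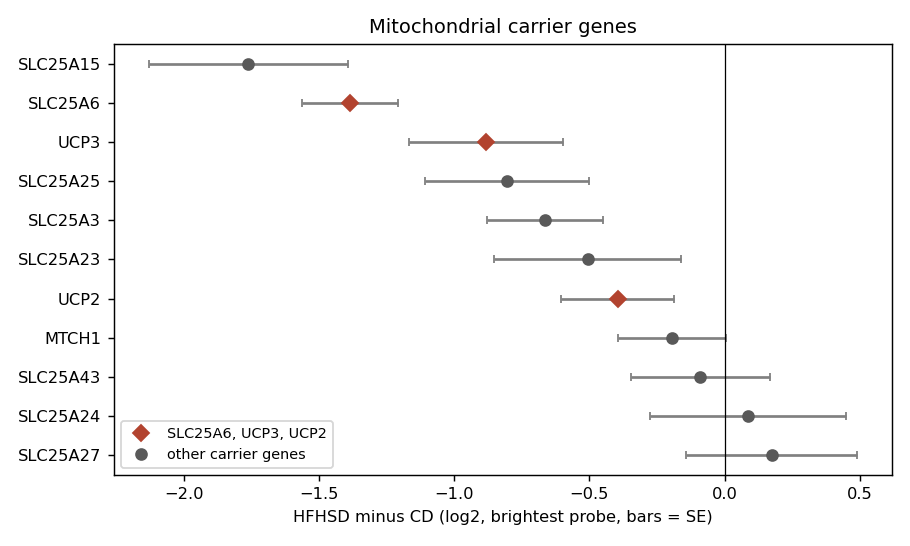
Difference between HFHSD and CD (log2, horizontal axis, bars ± SE of the limma fit) of the brightest probe of mitochondrial carrier genes (rows), with SLC25A6, UCP3 and UCP2 as red diamonds. SLC25A15 at -1.76 and SLC25A6 at -1.39 are the most negative, and SLC25A24 and SLC25A27 lie above 0. SLC25A24 (0.088, SE 0.36) was dim, well above background on 3 of 6 HFHSD and 0 of 3 CD arrays.

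The genes listed for ADP/ATP exchange and energy channelling went both ways. Of the 11 measured genes other than SLC25A6, 6 were lower and 5 higher, with a median of -0.061, and 0 passed. The 5 higher were TSPO (0.53), AK4 (0.24), AK3 (0.18), HK1 (0.050) and VDAC3. The median was -0.40 within slide 2 and 0.35 with normexp and 75th percentile scaling. VDAC2, a pore of the outer membrane, differed by -0.63 (SE 0.24, limma adjusted p = 0.23), while VDAC1 (-0.061) and VDAC3 (0.040) had differences near 0. CKMT2, the mitochondrial creatine kinase of muscle, differed by -0.43 (SE 0.20, limma adjusted p = 0.31), which became 0.043 with normexp and 75th percentile scaling. CKM, another creatine kinase, differed by -0.17 (SE 0.19, limma adjusted p = 0.74). All 11 probes of CKMT2 and all 10 of CKM were lower. All 9 measured ATP synthase genes were lower by their difference, with a median of -0.38, and 0 passed. ATP5G3 (-0.82), ATP5I (-0.69), ATP5G1 (-0.69) and ATP5L (-0.67) had the smallest p-values (limma adjusted p from 0.10 to 0.19), and the median became 0.076 with normexp and 75th percentile scaling.

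SLC25A20 acts between the carnitine palmitoyltransferases, and some of its partners could be measured. Of 9 genes listed with the carnitine shuttle 3 were lower and 6 higher, with a median of 0.0075, and 0 passed. The higher genes included the acyl-CoA synthetases ACSL1 (0.0049), ACSL3, ACSL4 (0.24) and ACSL5 (0.20). CPT2 differed by 0.0075 (SE 0.44; well above background on 6 of 6 HFHSD and 2 of 3 CD arrays) and CRAT by -0.11 (SE 0.18). CPT1B, the muscle enzyme that loads fatty acids onto carnitine, differed by -0.43 (SE 0.28, limma adjusted p = 0.51), CPT1A, the liver form, by 0.27 (SE 0.28; 0.091 without HFHSD 1), CROT, the peroxisomal carnitine octanoyltransferase, by -0.29, and ACSL3, an acyl-CoA synthetase, by 0.88 (SE 0.37, limma adjusted p = 0.27). The fatty acid oxidation genes split 7 lower to 6 higher, with a median of -0.13 and 0 passing. ACADM, the medium-chain dehydrogenase, differed by 0.67 (SE 0.18, limma adjusted p = 0.093) and ACADL, its long-chain relative, by 0.45, whereas PDK4, which like UCP3 is induced by fatty acids and fasting and which restrains pyruvate dehydrogenase, differed by -0.79 (SE 0.35, limma adjusted p = 0.30), and ECI2 by -0.67.

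Of 13 measured regulators of mitochondrial and uncoupling genes, 8 were lower and 5 higher, with a median of -0.35, and 0 passed. MYOD1, a myogenic factor that activates the UCP3 gene, differed by -1.93 (SE 0.49, limma adjusted p = 0.086; well above background on 3 of 6 HFHSD and 2 of 3 CD arrays), and RXRB, a partner of the PPAR receptors, by -0.99 (SE 0.29, limma adjusted p = 0.12). PPARG, the adipocyte PPAR, differed by 0.96 (SE 0.28, limma adjusted p = 0.12). Of the 7 genes of antioxidant defence, 1 passed: CAT, the peroxisomal catalase, rose by 0.80 (SE 0.15, limma adjusted p = 0.040; 1 of its 9 probes passed, and it missed the threshold in each fit that left out 1 array). GPX1 differed by -0.48, PRDX3 by -0.21 and GPX4 by -0.17, the last 2 turning to 0.19 and 0.30 with normexp and 75th percentile scaling.

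The named genes whose level followed SLC25A6 most closely were ranked by Pearson r over the 9 arrays, which share their labelling and scaling, so the values are a description. Over deviations from the diet means they were DNAJC19, a co-chaperone of mitochondrial protein import (r = 0.97), SNRPC, a U1 splicing protein (0.97), PSME3, a proteasome activator (0.96), ZXDC (0.96) and CSTF1, a factor of mRNA 3' processing (0.95), beside a median of 0.29 over the other 2612 genes. DNAJC19 differed by -0.081 and SNRPC by -0.049 between the diets, so a shared order of animals went with unequal diet differences. Over the levels themselves they were DPM1, a mannose donor enzyme (0.99), AP3S2 (0.97), MUL1, a mitochondrial ubiquitin ligase (0.97), HPS6 (0.97) and TXNRD1, the cytosolic thioredoxin reductase (0.97). MUL1 averaged -1.64 in HFHSD and 2.94 in CD, a difference of -4.58 (SE 0.28, limma adjusted p = 0.00013), so that its r over levels reflects a diet contrast larger than that of SLC25A6.

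For UCP2 the most alike over deviations were IDH3B, a subunit of the tricarboxylic acid cycle enzyme isocitrate dehydrogenase (r = 0.97), C4BPA, a complement regulator (0.94), FOLR1, C1QA, a complement component made by macrophages, and CLDN12 (0.91 each), and over levels IDH3B (0.98), FOLR1 (0.93), MRPS11, HSP90AA1 (0.91 each) and CTSD, a lysosomal protease (0.90). For UCP3 they were C4H8orf37 (0.96), HSPA6, a stress-induced chaperone (0.92), HMOX2, a haem oxygenase (0.90), MBP (0.88) and DDX3X (0.87) over deviations, and HMOX2 (0.95), ZFAND5 (0.93), MBP, GNL1 (0.92 each) and SOCS6 (0.91) over levels. Among the named genes, UCP2 ranked 618 and UCP3 1067 in likeness to SLC25A6 over deviations.

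Markers of the cell types in the muscle were set beside these results. Of 15 myofibre markers 13 were measured, 10 were lower by their difference, the median difference was -0.087, and 0 passed. TNNT3 differed by -1.04 (limma adjusted p = 0.11) and MYH2 by -0.996 (limma adjusted p = 0.16). MYH4 went the other way, by 0.61 (limma adjusted p = 0.37). The summed signal of the myofibre markers, in multiples of the array's 75th percentile, was 10552 to 14202 in HFHSD and 12708 to 16938 in CD, which overlapped. Of 10 adipocyte markers 10 were measured, 2 were lower by their difference, and the median difference was 1.10. CIDEA alone passed and rose by 1.49 (limma adjusted p = 0.038). ADIPOQ differed by 2.47 (limma adjusted p = 0.11) and CIDEC by 2.06 (limma adjusted p = 0.12). The 2 lower were PCK1 (-1.75) and GPD1 (-0.24). The summed signals overlapped, at 461 to 790 in HFHSD and 519 to 850 in CD. GPD1, the brightest of the 10, weighs most in this sum, at a mean level of 8.74 in HFHSD and 8.98 in CD. Of 16 macrophage and leukocyte markers, the class in which UCP2 is known to be high, 12 were measured, 9 were lower by their difference, and the median difference was -0.10. Of these 12, 1 passed: FCGR3A rose by 1.19 (limma adjusted p = 0.034), while CD163 differed by -1.13 (limma adjusted p = 0.35). Their summed signal was 21.1, 18.9, 39.3, 38.0, 17.5 and 23.1 in HFHSD 1 to 6, against 37.2, 23.0 and 31.96 in CD 1 to 3. HFHSD 3 and HFHSD 4, the highest of the HFHSD animals in this sum, were also the highest in UCP2. Of the endothelial markers 6 of 10, of the fibroblast markers 6 of 9, of the smooth muscle markers 4 of 6 and of the erythrocyte and plasma markers 1 of 6 were measured, 0 passed, and the summed signals of the diets overlapped for each class. All 4 smooth muscle genes were lower by their difference, with a median of -0.37, and DES among them is also a myofibre marker. The 1 erythrocyte and plasma gene was ALB, which differed by 1.73 (SE 0.75), so no erythrocyte marker was measured. The part of these cell types in the differences of SLC25A6, UCP3 and UCP2 was not tested.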

How the data were processed

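Muscle RNA of 9 minipigs (6 HFHSD, 3 CD) was measured on single-dye arrays. Scanner output was deposited with 1 processed intensity per spot, beside spot medians, background medians and quality flags. It was made, per the file headers, with Agilent Feature Extraction 10.7.3.1. The processed intensities are background-subtracted and detrended within the array, not scaled between arrays. A series-wide table that the authors deposited repeats these processed intensities. The log2 values were computed here from them.

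Control spots and outlier spots were left out (22 probes lost), spots of a probe were averaged in log2, and the array's 75th percentile was subtracted. Probes well above background on at least 3 arrays were tested with limma 3.58.1 in R 4.3.3, without covariates, with Benjamini-Hochberg adjustment over 27922 probes. The fit was run on simulated probes with known changes, independent noise and no slide effect, so this does not test it for these arrays. A gene is its brightest probe.

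Accessions were named through RefSeq for Sscrofa11.1, used for names and neighbours only; the build of the array design is not given in the sources used here. Members and gene lists were chosen with earlier results of these data known. Named genes are all members, per list up to 4 genes by smallest unadjusted p, and the 5 most alike to each member by each measure. Others were named after their values were seen. These are VDAC1, VDAC3, TSPO, AK3, AK4, HK1, CKM, CPT2, CRAT, ACSL1, ACSL4, ACSL5, SLC25A23, SLC25A24, SLC25A25, SLC25A27 and the markers. Replicate numbers follow accession order. Each array is a separate animal, and the number of arrays limits the precision. Normexp (offset 50) used spot medians, since the files hold no mean signal. Some genes that this rule picks are not reported here.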

Additional observations from a re-analysis of the deposited data

Results flagged for a closer look

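CPT1A, the liver form of carnitine palmitoyltransferase, stood at a level of 3.63 in HFHSD 1, with the next HFHSD animal at 2.78. That gap was 0.645 of the range of the 6 HFHSD animals, above the critical value of Dixon's test. Without HFHSD 1 its difference between the diets was 0.091, against 0.27 with it. Of 34 probes and genes examined this way 1 was singled out, and chance singles out about 1 group in 20. None of the 9 SLC25A6, UCP2 and UCP3 probes was.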

How the results depend on the processing

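No paired analysis was run, because the animals of the diets are separate and the labels match none of them. With 3 CD animals, and CD 1 the dimmest array, each CD array weighs heavily. SLC25A6, UCP3 and UCP2 stayed lower in HFHSD under each alternative run. By its brightest probe SLC25A6 passed in 19 of 22 alternative fits to the same arrays. Of the 22, 9 left out 1 array, and the fit to the series-wide table repeats the reported one. The count is a description, since the gene was chosen by this contrast. The exceptions were normexp with 75th percentile scaling (-0.92) and the fits without CD 1 or CD 3. Leaving out any 1 array gave -1.46 to -1.29. UCP3 was -1.41 within slide 3 and -0.29 with normexp and 75th percentile scaling, where UCP2 was -0.19 and SLC25A6 minus UCP2 -0.73. Passing probes of these genes, 6 as reported, numbered 3 with median scaling, without a filter on dim probes, with slide as a fixed block and without slide 1, 0 with normexp and 75th percentile scaling, 1 at an adjusted p of 0.01, and 0 to 6 without 1 array. The cause of these shifts was not tested.

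Over all probes, 344 passed (194 higher, 150 lower), against 127 with median scaling (47 higher, 80 lower), 88 with normexp and 75th percentile scaling (63 higher, 25 lower), 488 with the percentile over detected probes (323 higher, 165 lower), 1205 with array weights, and 25 to 325 without 1 array. The median probe shifted to -0.17 with median scaling and to -0.17 with normexp and 75th percentile scaling.

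Pathway genes passing as higher, 1 as reported, were 0 with median scaling, no filter, slide as a fixed block, normexp and 75th percentile scaling, without slide 1, at 0.01 and without any 1 array, and 2 with the filter on all arrays, array weights, normexp and quantile, and at 0.10. Those passing as lower, 0 as reported, were 3 with the filter on all arrays, slide as a random block or a trended robust prior, 4 with array weights or at 0.10, 5 with normexp and quantile, and 0 to 1 without 1 array.

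With normexp and 75th percentile scaling CKMT2 was 0.043, PRDX3 0.19 and GPX4 0.30, and list medians were 0.35 (ADP/ATP exchange), 0.076 (ATP synthase), 0.42 (carnitine shuttle), 0.33 (fatty acid oxidation) and 0.30 (antioxidant defence). The carrier family median was -0.65 with median scaling, -0.66 with the filter on all arrays, -0.10 with normexp and quantile, -0.095 over probe means, and -0.61 to -0.35 without 1 array. The carnitine shuttle median was 0.29 with slide as a fixed block and 0.29 without slide 1. The regulator median was -0.093 with the filter on all arrays and -0.13 with normexp and quantile. The antioxidant median was -0.25 with median scaling and -0.22 to 0.058 without 1 array. Within slide 2 the ADP/ATP exchange median was -0.40 and the antioxidant median -0.30. Within slide 3 the medians were -0.091 (ATP synthase), 0.41 (fatty acid oxidation), -0.040 (regulators) and 0.17 (antioxidant defence).

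Across HFHSD animals, SLC25A6 with UCP2 gave r of -0.020 (quantile) and -0.11 (normexp and 75th percentile), SLC25A6 with UCP3 -0.44 (normexp) and -0.23 (no scaling), and UCP2 with UCP3 -0.098 (quantile), -0.038 (normexp), -0.018 (no scaling), -0.11 (probe means) and -0.42 to 0.49 without 1 array. With the share of probes well above background, SLC25A6 gave 0.13 (normexp) and 0.77 (no scaling), and UCP2 0.55 (no scaling) and -0.81 to 0.11 without 1 array.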
